A study of Mus musculus with 6 samples.

Results

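Purinergic receptors sense nucleotides and adenosine outside the cell, and 10 of their genes were followed here in cultured osteoclasts: *P2rx1*, *P2rx4*, *P2rx7*, *P2ry1*, *P2ry2*, *P2ry6*, *P2ry12*, *P2ry14*, *Adora2a* and *Adora2b*. They were taken by gene name from the scanner tables, control spots aside, which gave 18 of the 56605 probes and 10 of the 37074 gene names on the array. Bone marrow cells of 3 *Ano1fl/fl* mice (control) and of 3 *Ctsk-Cre;Ano1fl/fl* littermates (cKO) were turned into osteoclasts with RANKL over 5 days, and the RNA of each mouse was read on 1 single-colour Agilent array. Both genotypes carry the floxed *Ano1* alleles, Ano1 being a calcium-activated chloride channel. In the cKO mice Cre is made from the cathepsin K gene, which is active in the osteoclast lineage, so cells of a culture that do not use this gene would keep *Ano1*. The methods describe such cultures in general as started from mice aged 6 to 8 weeks, with RANKL at 50 ng/ml and the growth factor M-CSF at 30 ng/ml. The comparison asks which transcripts differ between osteoclasts of the 2 genotypes.

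P2X receptors are cation channels opened by ATP. P2Y receptors are G protein-coupled and answer to ATP, ADP, UTP, UDP or UDP-sugars, whereas adenosine receptors bind the nucleoside left when nucleotides are degraded. Osteoclasts and their precursors release ATP, carry receptors of all these kinds, and have long been known to respond to extracellular nucleotides in fusion, survival and resorption.

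All values are log2 signals after quantile normalization of the 6 arrays, given as mean ± SD over n = 3 arrays of a group, and a difference is the cKO mean minus the control mean with its standard error (SE). A probe was called where limma's adjusted p, taken over all probes tested, was under 0.05. The number of arrays limits the precision, and the smallest two-sided exact permutation p that 3 against 3 arrays allow is 0.1. Between 33480 and 34951 of 59305 transcript spots on an array were brighter than background and none was saturated. The single *Ano1* probe was below background on all 6 arrays, so the signal of the targeted gene could not check the labels, and every direction rests on them. No osteoclast marker was below background on all arrays. All 11 genes of the marker list were higher on the arrays labelled cKO, beside 23.0% of all genes tested. *Ctsk*, cathepsin K, rose from 13.89 ± 0.17 to 17.06 ± 0.10 (difference 3.17, SE 0.11, adjusted p = 1.28e-05), and *Calcr*, the calcitonin receptor, from 4.12 ± 0.25 to 13.01 ± 0.31 (difference 8.89, SE 0.19, adjusted p = 4.25e-06). The control signal of *Calcr* lay close to the dimmest signals detected, so the size of its rise is less certain. Pearson's r over probes, which are not independent replicates, was 0.994 to 0.997 between arrays of a group and 0.944 to 0.950 between arrays of different groups.

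Of the 10 receptor genes, each represented by its brightest probe, 3 were higher and 5 were lower on the cKO arrays, and 2 were not called. The higher genes were *Adora2a*, *P2ry2* and *Adora2b*, and the lower genes were *P2ry12*, *P2ry6*, *P2ry14*, *P2rx1* and *P2rx7*. A call was common on these arrays: 51.5% of all 20645 genes tested were called, 23.0% as higher and 28.5% as lower. *Adora2a* and *P2ry2* rose by more than 2-fold and *P2ry12* fell by more than 2-fold, while 9.89% and 7.19% of all genes tested did so in these directions. The groups did not overlap for 8 of the 10 genes, against 64.0% of all genes tested. The median difference of the 10 genes was -0.43, and that of all genes tested was -0.06. These are bulk RNA samples, in which fewer cells of a type and less RNA per cell cannot be told apart.

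**Figure D1:**
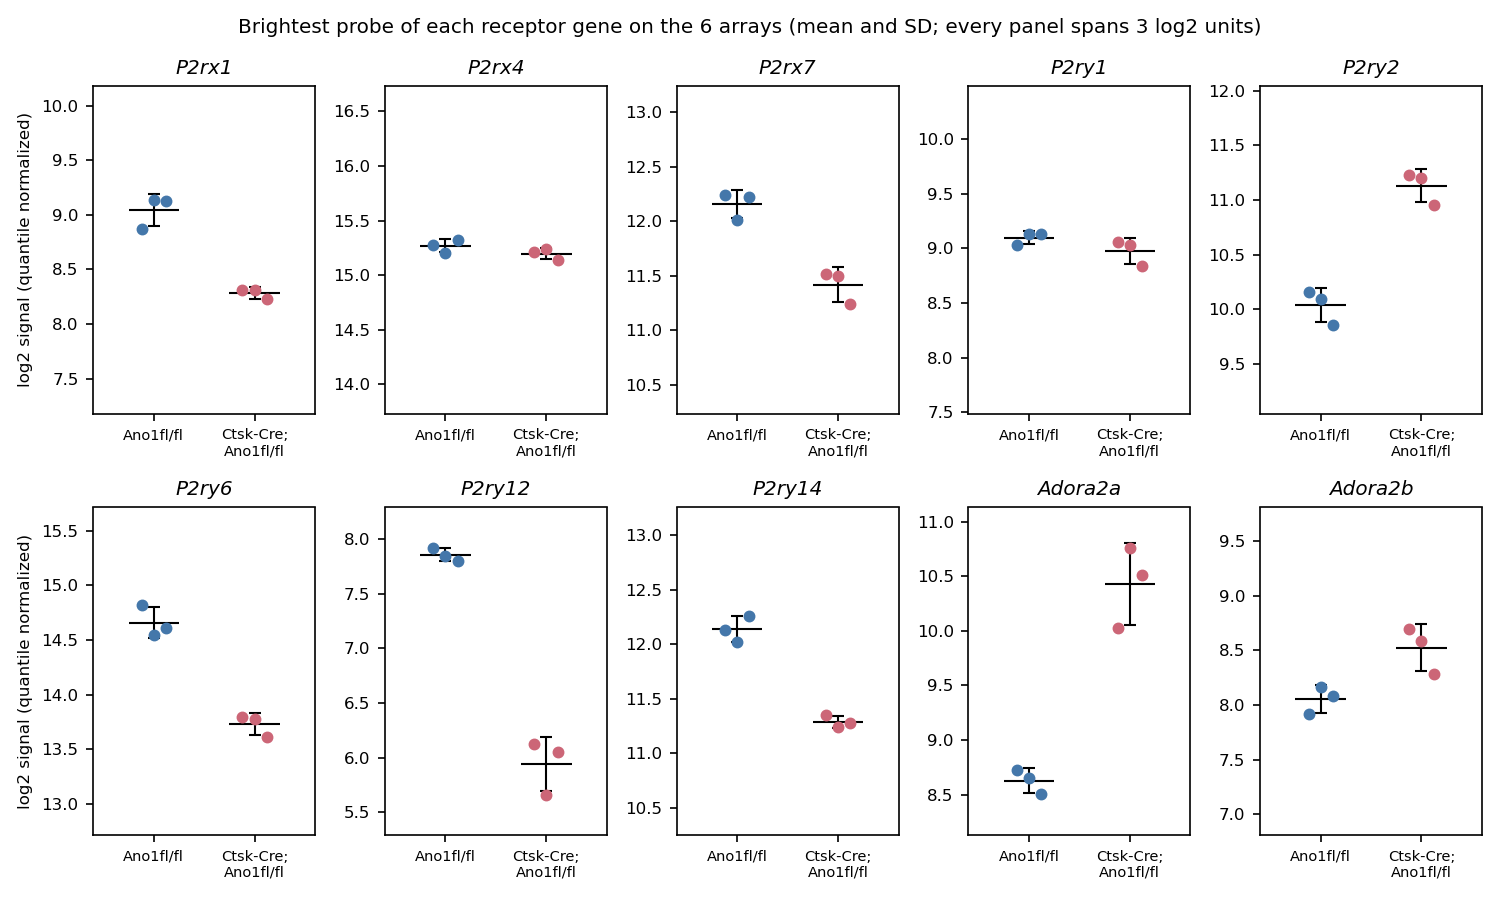
Log2 signal of the brightest probe of each of the 10 receptor genes, with 1 point per array, a line at the group mean and bars for the SD (n = 3 arrays per group). The groups overlap for *P2rx4* and *P2ry1*, the cKO points lie above the control points for *P2ry2*, *Adora2a* and *Adora2b*, and they lie below them for the other 5 genes.

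Among the 17 probes that could be tested, all brighter than background on every array, 3 were higher, 11 were lower and 3 were not called. Over all 31848 probes tested, 52.4% were called, 21.8% as higher and 30.6% as lower. The groups did not overlap for 14 of the 17 probes, against 64.0% of all probes. All 14 probes with a RefSeq accession matched the symbol of their own gene in the gene reference. Probe positions are those of the array tables on mm9, whose exon annotation was not used here. The 60-base sequences of 3 probes are shown, 1 for each kind of receptor. The *P2rx7* probe is the one whose mm9 interval is longer than the probe, as for a sequence that crosses a splice junction, and the *P2ry14* and *Adora2b* probes stand for a receptor gene that fell and one that rose. No letters are marked.

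P2rx7 (NM_001038845, position 1125): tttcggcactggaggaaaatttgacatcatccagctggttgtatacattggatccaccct

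P2ry14 (NM_133200, position 1410): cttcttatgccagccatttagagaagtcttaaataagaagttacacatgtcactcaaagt

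Adora2b (NM_007413, position 985): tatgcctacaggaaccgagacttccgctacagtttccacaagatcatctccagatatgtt

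Of the ATP-gated channels, *P2rx1* and *P2rx7* were lower on the cKO arrays at every probe, whereas the brightest *P2rx4* probe was not called. *P2rx7* encodes the channel that opens at high ATP and, in macrophages, leads to inflammasome activation. Its brightest probe (NM_011027, chr5:123134194-123134253) read 12.24, 12.01 and 12.22 on the control arrays and 11.52, 11.50 and 11.24 on the cKO arrays. Every cKO array was below every control array, and the signal fell 1.67-fold (difference -0.74, SE 0.11, adjusted p = 0.00246). The NM_001038845 probe shown above (chr5:123120528-123123413) read 7.33, 7.20 and 7.57 on the control arrays and 6.40, 6.24 and 6.21 on the cKO arrays, a 2.12-fold fall (difference -1.08, SE 0.12, adjusted p = 0.000660), or -0.68 after normexp background correction. Another probe, designed to NM_001038887 (chr5:123105174-123105233), fell 1.52-fold (9.50 ± 0.08 to 8.89 ± 0.03, difference -0.61, SE 0.08, adjusted p = 0.00110). All 3 *P2rx7* probes therefore separated the groups in the same direction.

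*P2rx1* encodes a fast-desensitizing ATP channel best known from platelets and smooth muscle. At its brightest probe (NM_008771, chr11:72828564-72828623) the control arrays read 8.87, 9.13 and 9.13 and the cKO arrays 8.31, 8.32 and 8.23. No cKO array reached the control range, and the signal fell 1.69-fold (difference -0.76, SE 0.10, adjusted p = 0.00118). The other probe of the same transcript (chr11:72827584-72827643) fell from 6.08 ± 0.16 to 5.41 ± 0.16 (difference -0.66, SE 0.12, adjusted p = 0.00523). The size of this dimmer probe was smaller after normexp background correction (-0.34) and on the values of the series matrix (-0.43).

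*P2rx4*, the channel gene of lysosomes and macrophages, gave different answers at its 3 probes. The brightest probe (NM_011026, chr5:123178983-123179042) read 15.28, 15.21 and 15.32 on the control arrays and 15.21, 15.24 and 15.14 on the cKO arrays. These ranges overlap, and the difference of -0.07 had a 95% interval of -0.25 to 0.11 (adjusted p = 0.445). The probe for ENSMUST00000031429 (chr5:123179545-123179604) went from 9.49 ± 0.07 to 9.28 ± 0.15 and was not called either (difference -0.21, SE 0.10, adjusted p = 0.122). Only the probe for ENSMUST00000195963, which lies further upstream (chr5:123159750-123159809), separated the groups, at 9.06, 8.74 and 9.09 on the control arrays and 8.09, 8.49 and 7.92 on the cKO arrays. It fell 1.74-fold (difference -0.80, SE 0.17, adjusted p = 0.00955). With the mean of all 3 probes in place of the brightest, *P2rx4* passed the threshold at a difference of -0.36 (adjusted p = 0.0327).

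The P2Y receptors that couple to Gq, and so to phospholipase C and calcium release, split in direction, with *P2ry2* higher, *P2ry6* lower and *P2ry1* not called. *P2ry2* encodes a receptor for ATP and UTP. Its brightest probe (NM_008773, chr7:108145553-108145612) read 10.16, 10.09 and 9.86 on the control arrays and 11.23, 11.20 and 10.96 on the cKO arrays. The lowest cKO array lay above the highest control array, and the rise was 2.13-fold (difference 1.09, SE 0.12, adjusted p = 0.000630). A second probe, for transcript L14751 (chr7:108145747-108145807), was below background on all 6 arrays and was not tested. Averaging it with the first would lower the difference to 0.42 (adjusted p = 0.00697).

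*P2ry6* encodes the UDP receptor. At its brightest probe (NM_183168, chr7:108086152-108086211) the control arrays read 14.82, 14.55 and 14.61 and the cKO arrays 13.80, 13.77 and 13.61. The groups are separate, with a 1.91-fold fall (difference -0.93, SE 0.10, adjusted p = 0.000663). The probe for AK008496 (chr7:108112251-108112310) read 11.98, 11.81 and 12.14 on the control arrays and 10.11, 10.35 and 10.03 on the cKO arrays, a 3.51-fold fall (difference -1.81, SE 0.13, adjusted p = 0.000112). *P2ry1*, a receptor for ADP, read 9.03, 9.13 and 9.14 on the control arrays and 9.05, 9.03 and 8.84 on the cKO arrays (NM_008772, chr3:60812600-60812659). Its groups overlap, and the difference of -0.12 had a 95% interval of -0.34 to 0.09 (adjusted p = 0.285).

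Both Gi-coupled P2Y genes, whose receptors lower cyclic AMP, were lower on the cKO arrays. *P2ry12* encodes the ADP receptor of platelets and microglia and had the largest fall of the 10 genes at their brightest probes. Its probe (NM_027571, chr3:59020598-59020657) read 7.92, 7.85 and 7.80 on the control arrays and 6.12, 5.66 and 6.05 on the cKO arrays. The control arrays lie within a narrow range and all cKO arrays far below it, a 3.76-fold fall (difference -1.91, SE 0.13, adjusted p = 0.000115). After normexp background correction the size was smaller, at -1.24 (adjusted p = 7.65e-06).

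*P2ry14* encodes the receptor for UDP-glucose and related sugars. The brightest probe (NM_001287123, chr3:58918548-58918607) read 12.13, 12.02 and 12.26 on the control arrays and 11.35, 11.24 and 11.28 on the cKO arrays. The groups did not overlap, and the signal fell 1.80-fold (difference -0.85, SE 0.09, adjusted p = 0.000553). The probe shown above (NM_133200, chr3:58919013-58919072) read 10.49, 10.30 and 10.64 on the control arrays and 9.54, 9.32 and 9.38 on the cKO arrays, a 2.09-fold fall (difference -1.06, SE 0.11, adjusted p = 0.000587).

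Platelet, neutrophil and mast cell markers were mostly lower on the cKO arrays too, whereas macrophage markers went both ways. Over all genes tested, 23.0% were called higher and 28.5% lower. None of the 10 platelet and megakaryocyte markers was higher and 8 were lower on the cKO arrays, with a median difference of -1.22 and a summed linear signal of 130958 to 150024 on the control arrays and 58334 to 66653 on the cKO arrays. *Pf4*, platelet factor 4, made up most of that sum and fell from 16.85 ± 0.10 to 15.69 ± 0.13 (difference -1.16, SE 0.10, adjusted p = 0.000239). Of 10 neutrophil markers, 1 was higher and 7 were lower, with a median of -1.39, and the summed signal was 320348 to 337257 on the control arrays and 212464 to 264865 on the cKO arrays. *Mpo*, myeloperoxidase, fell from 16.03 ± 0.02 to 12.63 ± 0.56 (difference -3.41, SE 0.27, adjusted p = 0.000177). Of 5 mast cell and basophil markers tested 0 were higher and 4 were lower, with a median of -2.53 and a summed signal of 3182 to 4389 on the control arrays and 663 to 1817 on the cKO arrays. Among 9 macrophage markers 1 was higher, 3 were lower and 5 were not called, the median was -0.04, and the summed signal was 521201 to 542971 on the control arrays and 543426 to 598757 on the cKO arrays. Within that list *Cx3cr1*, the fractalkine receptor, had the largest fall, unlike most of the list, from 14.19 ± 0.17 to 9.56 ± 0.50 (difference -4.62, SE 0.25, adjusted p = 4.66e-05). No marker of the platelet, neutrophil and macrophage lists was below background on all arrays, and 1 of the mast cell and basophil list was. The part of these cells in the lower *P2ry12*, *P2rx1*, *P2rx7*, *P2ry6* and *P2ry14* signals was not tested.

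*Adora2a* and *Adora2b* were higher on the cKO arrays, the second less stably. Both encode Gs-coupled receptors that raise cyclic AMP, the product of *Adora2a* at lower adenosine concentrations than that of *Adora2b*. *Adora2a* had the largest rise of the 10 genes. Its probe (NM_009630, chr10:74797461-74797520) read 8.72, 8.65 and 8.50 on the control arrays and 10.02, 10.76 and 10.51 on the cKO arrays. Every cKO array was above every control array, the cKO arrays being more spread, and the rise was 3.49-fold (difference 1.80, SE 0.19, adjusted p = 0.000547). *Adora2b*, at the probe shown above (chr11:62079096-62079155), read 7.92, 8.17 and 8.08 on the control arrays and 8.70, 8.59 and 8.28 on the cKO arrays. Its lowest cKO array lay just above its highest control array, and the rise was 1.38-fold (difference 0.47, SE 0.13, adjusted p = 0.0251). Before scaling between arrays its scanner signals overlapped (228, 317 and 325 on the control arrays, 430, 313 and 293 on the cKO arrays). The *Adora2b* call was lost, at adjusted p of 0.0607 to 0.0776, when control array 1 or 3 or cKO array 1 or 2 was left out, with differences of 0.40, 0.48, 0.38 and 0.44 in that order. Markers of several cell types moved with the rise of *P2ry2*, *Adora2a* and *Adora2b*. Their counts stand beside the 23.0% and 28.5% of all genes tested that were called higher and lower. The osteoclast markers had a summed signal of 147035 to 159747 on the control arrays and 506928 to 570054 on the cKO arrays, with a median difference of 3.13 over the 11 genes. Of 10 stromal markers 8 were higher and 1 was lower, with a median of 4.33 (4.18 with a gene below background on the control arrays at its bound) and a summed signal of 3092 to 3977 on the control arrays and 54800 to 92353 on the cKO arrays. *Col1a1*, type I collagen, rose from 7.04 ± 0.24 to 13.16 ± 0.43 (difference 6.12, SE 0.24, adjusted p = 1.57e-05). All 5 B cell markers were higher, with a median of 2.79 and a summed signal of 7646 to 9124 on the control arrays and 29064 to 56637 on the cKO arrays. The part of these cells in the rise of the 3 genes was not tested.

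**Figure D2:**
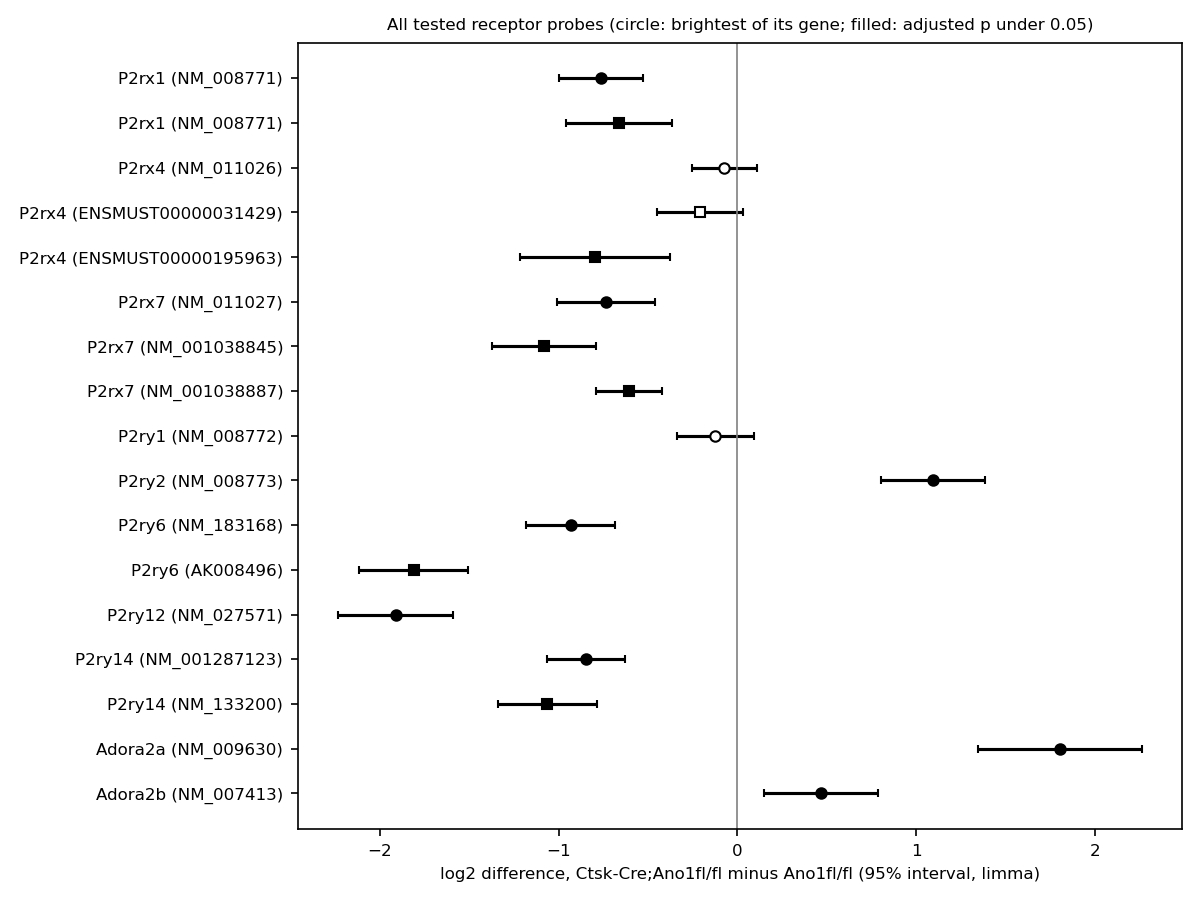
Difference in log2 signal, cKO minus control, for the 17 tested receptor probes with limma's 95% intervals, labelled by gene and transcript. Circles are the brightest probe of a gene, squares the other probes, and filled symbols have an adjusted p under 0.05. The values run from -1.91 for *P2ry12* to 1.80 for *Adora2a*, and probes of *P2rx4* and *P2ry6* lie apart from each other.

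The probes of a gene were compared directly by taking, on each array, the log2 signal of a probe minus that of the brightest probe of the same gene, which gave 7 comparisons. This relative signal of the ENSMUST00000195963 probe of *P2rx4* changed by -0.72, from -6.31 ± 0.14 on the control arrays to -7.03 ± 0.25 on the cKO arrays. For the AK008496 probe of *P2ry6* it went from -2.68 ± 0.19 to -3.56 ± 0.13, a change of -0.88. The NM_133200 probe of *P2ry14* changed by -0.22. The NM_001038845 probe of *P2rx7* changed by -0.35, but by -0.12 on the values of the series matrix and by 0.03 after normexp background correction. That correction also added an offset of 50, so this contrast depended on how background and dim signals were treated. In these 4 comparisons the groups did not overlap and the two-sided exact permutation p was 0.1, the smallest that 3 against 3 arrays allow, or 0.175 after Benjamini-Hochberg adjustment over the 7. The groups overlapped in the other 3, with changes of 0.10 for *P2rx1*, 0.13 for the NM_001038887 probe of *P2rx7* and -0.14 for the ENSMUST00000031429 probe of *P2rx4* (exact permutation p of 0.7, 0.3 and 0.2).

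Several of these genes lie next to each other in the genome, which allows neighbours to be set side by side. On chromosome 7 the tested *P2ry6* and *P2ry2* probes lie within 59.4 kb, and the first fell by 0.93 on the log2 scale while the second rose by 1.09. On chromosome 11 *P2rx1*, lower, is followed 158 to 159 kb downstream of its first probe by *P2rx5*, a further ATP-gated channel gene, which rose at both probes (differences 1.66 and 1.97, adjusted p = 0.000422 and 0.000274). On chromosome 3 the probes of *P2ry14*, *P2ry13* and *P2ry12* span 102 kb, and all 3 genes were lower, beside 28.5% of all genes tested. *P2ry13*, another Gi-coupled ADP receptor gene, went from 9.15 to 8.52 (difference -0.63, SE 0.10, adjusted p = 0.00248). The *P2rx7* and *P2rx4* probes share 74.4 kb of chromosome 5, where 4 of the 6 probes were lower and the last 2, both of *P2rx4*, were not called. Of all probes tested, 30.6% were called lower.

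**Figure D3:**
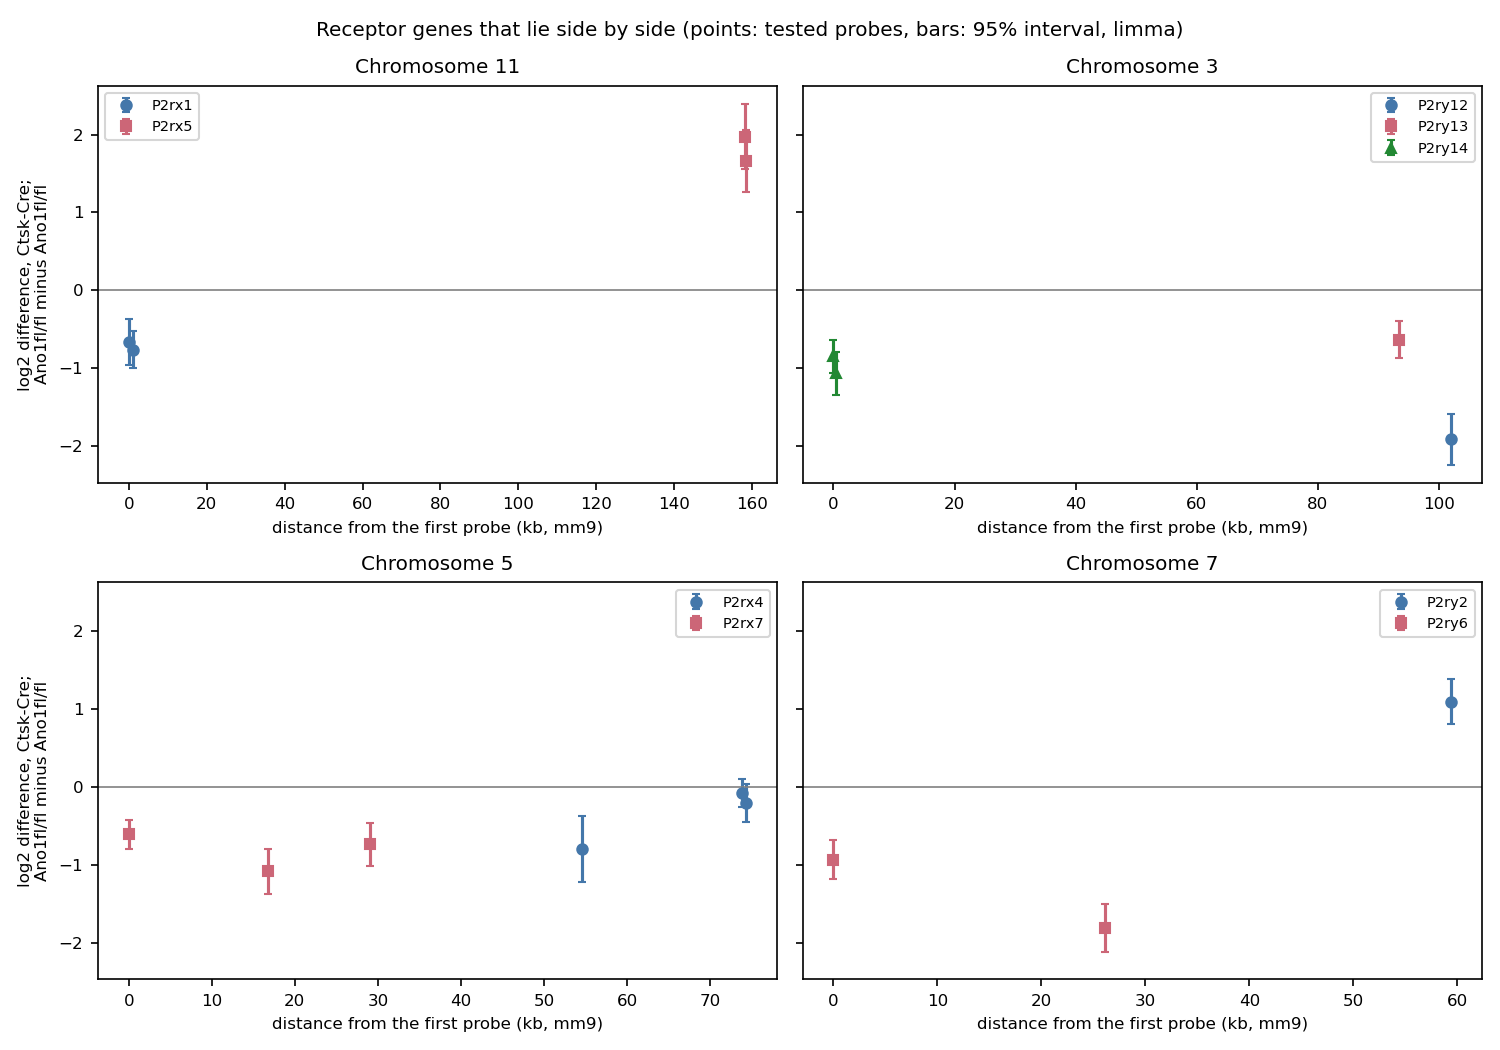
Difference in log2 signal (cKO minus control, with limma's 95% interval) of each tested probe against its distance in kb from the first probe of the locus on mm9, for 4 loci that hold more than 1 purinergic receptor gene. *P2ry6* and *P2ry2*, and *P2rx1* and *P2rx5*, lie on opposite sides of 0, whereas the 3 genes on chromosome 3 all lie below it.

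RefSeq promoter sequences of 300 bases, 250 before and 50 after a transcription start on GRCm38.p6, were matched by symbol for 8 of the 10 genes, *P2ry6* and *Adora2a* having no entry. Those of 4 genes are shown, *P2rx7*, *P2ry12* and *P2ry14* as genes that fell and whose window held a motif that was searched, and *P2ry2* as a gene that rose. *P2rx1*, which also fell, held none of the motifs. Capitals mark TGACTCA or its reverse complement TGAGTCA, the AP-1 motif, and AGGAAGT, an Ets family motif. Both strands were searched, and no match overlapped another.

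P2rx7, chr5:122643677-122643976, plus strand: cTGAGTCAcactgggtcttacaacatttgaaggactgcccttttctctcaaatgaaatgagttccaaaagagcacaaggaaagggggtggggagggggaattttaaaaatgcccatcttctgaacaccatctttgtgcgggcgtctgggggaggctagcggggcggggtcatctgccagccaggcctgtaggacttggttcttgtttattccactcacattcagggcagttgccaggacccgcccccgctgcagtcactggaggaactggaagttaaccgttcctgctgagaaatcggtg

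P2ry12, chr3:59262936-59263235, minus strand: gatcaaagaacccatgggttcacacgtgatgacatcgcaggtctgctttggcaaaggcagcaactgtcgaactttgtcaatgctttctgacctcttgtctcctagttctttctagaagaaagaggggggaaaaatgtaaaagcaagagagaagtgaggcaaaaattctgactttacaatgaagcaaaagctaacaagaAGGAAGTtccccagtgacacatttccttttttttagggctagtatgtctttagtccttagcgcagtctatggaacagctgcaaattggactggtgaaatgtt

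P2ry14, chr3:59153443-59153742, minus strand: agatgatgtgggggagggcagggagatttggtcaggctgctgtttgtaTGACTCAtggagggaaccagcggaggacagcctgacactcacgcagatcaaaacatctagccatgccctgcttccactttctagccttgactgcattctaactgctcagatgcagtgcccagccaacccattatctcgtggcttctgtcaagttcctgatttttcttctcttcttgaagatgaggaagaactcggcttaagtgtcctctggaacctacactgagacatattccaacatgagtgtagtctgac

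P2ry2, chr7:101012004-101012303, minus strand: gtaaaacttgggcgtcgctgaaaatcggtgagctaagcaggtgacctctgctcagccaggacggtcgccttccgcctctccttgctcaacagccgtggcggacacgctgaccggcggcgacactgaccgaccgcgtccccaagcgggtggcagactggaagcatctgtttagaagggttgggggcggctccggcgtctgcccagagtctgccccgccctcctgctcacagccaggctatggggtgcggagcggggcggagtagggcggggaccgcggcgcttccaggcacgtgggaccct

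The AP-1 letters occurred once each in the *P2rx7* and *P2ry14* windows shown and in 5.20% of all 32851 mouse promoters of this length. They were in none of the other windows of *P2rx7* and *P2ry14*. AGGAAGT occurred once in the *P2ry12* window and once in a second *P2rx7* window that is not shown, and in 9.35% of all promoters. The cyclic AMP response element TGACGTCA, found in 1.79% of all promoters, was in none of the windows of the 8 genes. Base composition ran from 42.3% G and C in *P2ry12* and 43.3% to 49.3% in the 4 *P2ry14* windows to 67.3% and 71.0% in those of *P2ry2*, 70.0% in *Adora2b* and 70.7% in *P2ry1*. The median of all promoters was 52.7%. *P2rx1*, *P2rx4* and *P2rx7* lay between, at 60.7%, 60.3% and 51.7% to 53.3%. These matches and compositions describe the windows only.

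Other genes of the pathway were taken from 6 lists with 58 genes, all on the array, of which 52 were tested. On the cKO arrays 22 were higher and 12 were lower, beside the 23.0% and 28.5% of all genes tested that were called in these directions, and 18 were not called. Their median difference was 0.20, beside -0.06 over all genes tested. At the brightest probe, more than 2-fold changes were seen for 14 higher and 3 lower genes (9.89% and 7.19% of all genes tested), and the groups of 38 did not overlap (64.0% of all genes tested). The remaining 6 genes were below background on all arrays.

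Of the 9 remaining receptor genes 7 were tested, 4 called higher and 2 lower, beside 23.0% and 28.5% of all genes tested, with a median of 0.96, or 0.53 with *Adora1* (below) at its bound. *P2rx3*, the ATP channel of sensory neurons, rose from 4.65 ± 0.17 to 6.85 ± 0.14 (difference 2.20, SE 0.12, adjusted p = 4.81e-05). Its other tested probe was below background on the control arrays and at least 1.45-fold higher on the cKO arrays (adjusted p = 0.00506). A further *P2rx3* probe was below background throughout. *P2rx5* rose 3.17-fold, from 8.25 ± 0.28 to 9.92 ± 0.18. *P2ry10*, a lysophospholipid receptor gene of lymphoid and myeloid cells, rose from 8.07 ± 0.06 to 9.23 ± 0.50 (difference 1.16, SE 0.24, adjusted p = 0.00761). The part of the B cell markers in the *P2ry10* rise was not tested. Of the other adenosine receptor genes, *Adora3*, Gi-coupled, was lower (difference -0.68, SE 0.11, adjusted p = 0.00263). *Adora1*, also Gi-coupled, was below background on the control arrays and at least 1.44-fold higher on the cKO arrays (adjusted p = 0.000471), the bound being taken against the dimmest detected signal of each control array. *P2rx2* was not called (difference 0.11, adjusted p = 0.429), and *P2rx6* and *P2ry4* were below background throughout.

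Of 7 tested genes for enzymes that cut nucleotides outside the cell, 5 were called higher and 1 lower on the cKO arrays, beside 23.0% and 28.5% of all genes tested, and their median was 1.95. *Alpl*, tissue-nonspecific alkaline phosphatase, rose from 4.49 ± 0.16 to 10.01 ± 0.31 at its brightest probe (difference 5.52, SE 0.17, adjusted p = 9.92e-06), but its other tested probe rose by 0.84 only. *Entpd3*, an ATP and ADP hydrolase, was below background on the control arrays and at least 4.17-fold higher on the cKO arrays (adjusted p = 0.000143). *Acpp*, a phosphatase that can make adenosine from AMP, rose 4.79-fold (difference 2.26, SE 0.19, adjusted p = 0.000240). *Entpd1*, which encodes CD39 and starts the breakdown of ATP on leukocytes, fell 2.43-fold, from 9.88 ± 0.26 to 8.60 ± 0.09 (difference -1.28, SE 0.14, adjusted p = 0.000658). *Nt5e*, which encodes CD73 and makes adenosine from AMP, was not called (difference 0.29, SE 0.17, adjusted p = 0.183). *Entpd8* and *Enpp3* were below background.

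The part of the stromal markers described above in the rise of *Alpl* and of the other enzymes was not tested.

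Of 9 tested genes of adenosine transport and metabolism, 3 were called higher and 4 lower, beside 23.0% and 28.5% of all genes tested, with a median of 0.19. *Dpp4*, which encodes CD26 and binds adenosine deaminase at the cell surface, rose 9.28-fold (difference 3.21, SE 0.25, adjusted p = 0.000181), with its other 2 probes also called, one higher by 0.93 and one, below background on the control arrays, at least 2.47-fold higher. *Slc28a2*, a concentrating nucleoside transporter, rose 2.70-fold (difference 1.43, SE 0.17, adjusted p = 0.000815). The part of the stromal and B cell markers given above in the rise of *Dpp4* and *Slc28a2* was not tested. *Slc29a3*, an equilibrative transporter of lysosomes, fell 2.31-fold (difference -1.21, SE 0.11, adjusted p = 0.000341).

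Among genes for ATP and pyrophosphate release 5 of 7 were called higher and 1 lower, beside 23.0% and 28.5% of all genes tested, with a median of 0.67. *Gja1*, connexin 43, rose 4.94-fold (difference 2.30, SE 0.12, adjusted p = 4.75e-05). *Ank*, a membrane protein of pyrophosphate and ATP efflux, rose from 10.75 ± 0.23 to 12.76 ± 0.18 (difference 2.01, SE 0.15, adjusted p = 0.000146). The stromal markers given above moved with both, and their part was not tested.

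Downstream of P2X7, the 7 inflammasome genes held 1 called higher, 2 called lower (23.0% and 28.5% of all genes tested) and 4 not called, with a median of 0.00. *Il1b*, interleukin 1 beta, rose 4.18-fold (difference 2.06, SE 0.20, adjusted p = 0.000379), whereas *Il18* fell 2.26-fold (difference -1.18, SE 0.17, adjusted p = 0.00173). Of the 15 G proteins and effectors 4 were called higher and 2 lower, beside the same shares of all genes tested, 9 were not called, and the median was -0.04. *Itpr2*, a calcium release channel opened by inositol trisphosphate, was the single gene of this list past 2-fold at its brightest probe (2.18-fold higher, difference 1.12, SE 0.07, adjusted p = 8.56e-05). Of its other 3 tested probes 2 were also called higher, and the lowest changed by -0.21. Dimmer *Itpr1* probes also passed 2-fold (differences -1.07 and -1.07, adjusted p = 0.000429 and 0.00237), as did a *Gnas* probe (1.56, adjusted p = 0.00454). The brightest probes of *Itpr1* and *Gnas* differed by -0.07 and 0.51.

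**Figure D4:**
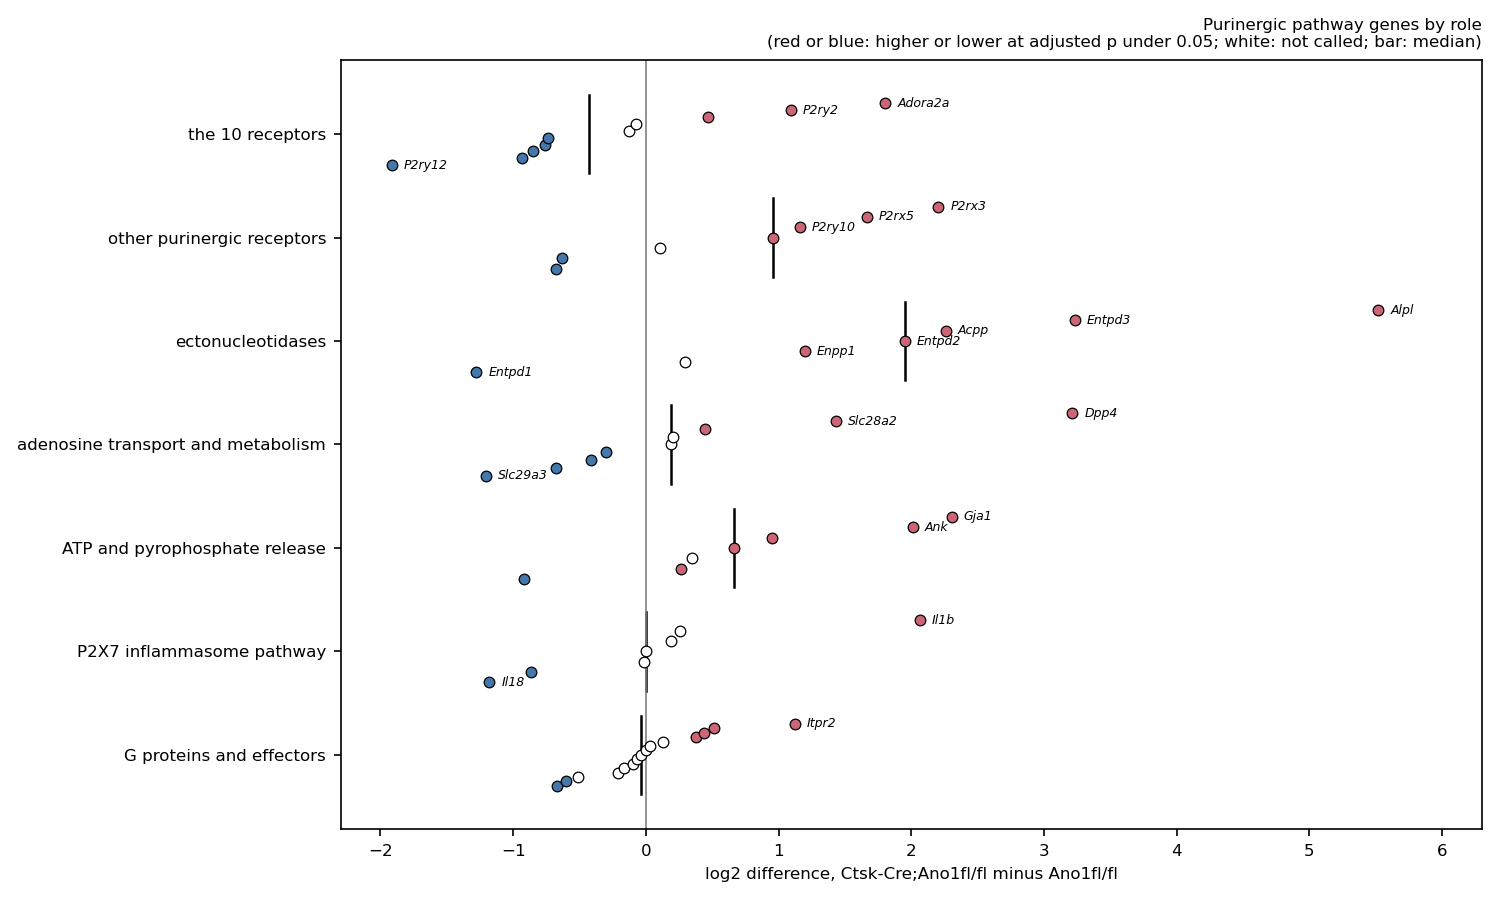
Difference in log2 signal, cKO minus control, for each tested gene of the 10 receptors and of the 6 other pathway lists, 1 row per list and 1 point per gene. Red and blue points were called higher and lower at an adjusted p under 0.05, white points were not called, vertical bars are list medians, and genes called with a difference beyond 1 are named. The ectonucleotidases have the highest median (1.95) and the 10 receptors the lowest (-0.43), and *Entpd3* and *Adora1*, the latter at the median bar of its list, are drawn at their measured differences although both were below background on the control arrays.

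The genes whose profile over the 6 arrays lay nearest to those of the receptors with the largest rise and fall were found among 13766 gene names, by the root mean square distance of log2 signals centred on each gene's mean. Nearest to *Adora2a* were *Tm4sf19*, a tetraspan membrane protein gene (distance 0.10), *Pfkfb2*, an enzyme gene of glycolysis control (0.13), and *Myh6*, a myosin heavy chain gene (0.13), whose differences were 1.78, 1.80 and 1.83. Nearest to *P2ry12* were *Gls2*, a glutaminase gene (0.05), *D17H6S56E-5* (0.06) and *Stmn1*, a gene of a microtubule regulator (0.08), with differences of -1.93, -1.79 and -1.94. With 6 arrays in 2 groups these distances describe mainly the difference between the groups.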

How the data were processed

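RNA from osteoclast cultures of 6 mice was hybridised to 6 Agilent SurePrint arrays, all of 1 slide and 1 scan. The authors deposited the intensity of every spot as Agilent Feature Extraction 10.7.1.1 wrote it, with a processed signal corrected for background and trends within the array but not scaled between arrays. The deposited series matrix, also intensity, equalled the median brightness of each spot (largest difference 0). Its scale is therefore linear and uncorrected. In R 4.3.3 with limma 3.58.1 and data.table (version 1.17.8), log2 processed signals were quantile normalized, outlier spots (143 to 252 an array) were treated as missing, and spots of a probe were averaged. In all, 14 probes with missing values were left out. A probe counted as detected on an array if at least 0.5 of its spots were marked as above background by the scanner software, and was tested if detected on all 3 arrays of either group. Groups were compared by lmFit and eBayes with Benjamini-Hochberg adjustment over 31848 probes. The methods name quantile standardization and, for 2-group comparisons at large, Student's t-test, which was run as an alternative. Where a group was below background, the fold is a bound, taken against the dimmest detected signal of its arrays. Plots used Python 3.11.15, pandas 2.3.3 and matplotlib 3.10.9.

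The 10 genes and all lists were chosen with earlier results of these data known. All 10 were named with every probe, and of each other list the 3 largest rises and 3 largest falls past 2-fold, with 6 marker genes. Genes below background on all arrays (*P2rx6*, *P2ry4*, *Entpd8* and *Enpp3*) were named as such. *P2rx2*, *P2ry13*, *Adora1*, *Adora3*, *Nt5e*, *Itpr1* and *Gnas* fall outside that rule and were named after their values were seen. Lists of endothelial, dendritic, and T and NK cell markers were also measured, where 23.0% of all genes tested were called higher and 28.5% lower. Of 4 endothelial markers tested 1 was higher and 1 lower (median -0.37), of 4 dendritic cell markers 2 were higher and 1 lower (median 0.23), and of 5 T and NK cell markers 1 was higher and 2 lower (median -0.41). Same-numbered arrays of the 2 groups did not deviate together (correlations -0.02, -0.08 and -0.09), so the numbers were not taken to pair mice. The alternatives changed the scaling, background correction, source of values, filter, probe rule, test, block, arrays and call rule. Normexp background correction was run with an offset of 50 added to each signal, which by itself makes differences of dim probes smaller.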

Additional observations from a re-analysis of the deposited data

How the results depend on the processing

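None of the receptor differences changed sign under any alternative run. Requiring more than 2-fold left 1 receptor gene called lower, 14 and 3 pathway genes called higher and lower, 2041 and 1485 of all genes, and 2838 and 2584 of all probes. *Adora2b* kept its difference of 0.47 but missed the threshold without a filter on dim probes (adjusted p = 0.0585), with the methods' t-test after adjustment (0.0643) and with the replicate number as a block (0.0567). Leaving out 1 array at a time gave it differences of 0.38 to 0.59, and 4 of these 6 fits lost the call. *P2rx4* was called when its probes were averaged (-0.36), and its ENSMUST00000031429 probe when cKO array 2 was left out (-0.30, adjusted p = 0.0443). Called receptor differences that moved by more than 1.5 times but kept their calls were *P2ry12* (-1.24), the NM_001038845 probe of *P2rx7* (-0.68) and the dimmer *P2rx1* probe (-0.34) with normexp, the latter also on series matrix values (-0.43), and *P2ry2* as a mean of probes (0.42). Of the 7 comparisons between probes, those of the NM_001038845 probe of *P2rx7* (0.03 with normexp, against -0.35) and of *P2rx1* (-0.03 without cKO array 3, against 0.10) changed sign. The replicate block left 2 receptor genes higher and 5 lower, 20 and 10 pathway genes, and 5988 and 8162 of all probes, and *Adora2b* was the only receptor gene to lose its call. Over the scalings the median difference of all genes was between -0.10 and -0.04. Signal over background left 1 of the 18 receptor probes untested.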
